A study of Homo sapiens with 10 samples.

Results

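The EV and NT lines are the 2 control lines of a study of CPT1A in LNCaP-C4-2 cells, and their 4 samples, 2 of each line, were taken by label from the 10 samples of the series. LNCaP-C4-2 is an established human prostate cancer cell line, a derivative of LNCaP that grows without testicular androgen, and CPT1A is the carnitine acyltransferase that lets long-chain fatty acids into mitochondria. NT (LNCaP-C4-2_CTL_KD in the labels) was transduced with a lentivirus carrying a non-targeting shRNA and selected with puromycin at 1 ug/ml, and it is the control of the KD line, which carries an shRNA against CPT1A. EV (LNCaP-C4-2_CTL_OE) was transduced with an empty lentiviral vector and selected with blasticidin at 5 ug/ml, and it is the control of the OE line, which over-expresses CPT1A. All lines were grown in RPMI with fetal bovine serum. Each line is 1 transduced population as far as the sources describe it, so the samples of a line may be repeat cultures or repeat extractions, and a p-value measures only the spread between such samples. The insert, the vector, the drug and the history of each line move together here and cannot be told apart.

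Control lines of this kind serve as baselines, since neither carries a sequence aimed at a human gene. Prostate luminal cells depend on androgen, a steroid hormone that switches on secreted kallikreins and many enzymes of lipid synthesis, while the SREBP factors switch on the genes of cholesterol and fatty acid synthesis. Messenger RNAs of ribosomal proteins and of several translation factors begin with a C followed by a run of pyrimidines, the 5′ terminal oligopyrimidine tract, through which their translation and stability are set together.

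Depth was alike in the controls, with 24225383 to 26253609 counts per sample, and 23555205 to 28615770 over the series. CPT1A was at 265 and 262 CPM (counts scaled to library size with TMM, edgeR's trimmed mean of M values) in NT and at 326 and 318 in EV, against 81.2 to 86.4 in KD and 861 to 914 in OE, so the targeted gene followed the labels. All 14 markers of prostate luminal cells were present in every sample. Of 22 markers of other cell types 16 were too low to test. Among these, KRT5, PECAM1, CD3E and CHGB had 0 counts in all 10 samples. The 6 that were tested had counts in every sample. KRT14 had 9 to 47, COL3A1 2 to 54, SYP 45 to 88, VWF 159 to 226, COL1A1 217 to 440 and VIM 729 to 2127. The NT samples differed from each other by a root mean square of 0.311 in log2 CPM and the EV samples by 0.32, while NT to EV distances were 0.496 to 0.507. Those were smaller than the distances of NT to KD (0.692 to 0.738) and of EV to OE (0.613 to 0.68).

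EV and NT were compared to ask how far apart 2 lines are that differ by design only in virus and drug. Of 17230 genes tested, 1406 (8.16%) differed at an adjusted p under 0.0001 (edgeR quasi-likelihood test, Benjamini-Hochberg), and such genes are named called here. Higher in EV were 905 (5.25%) and lower 501 (2.91%). Counts of called list members below are to be read against these 2 shares. Most differences were modest, with a median log2 fold change of 0.51 among the genes called higher and -0.61 among those called lower, and 256 called genes (143 higher, 113 lower) reached an absolute log2 fold change of 1. At an adjusted p under 0.05 there were 5867 genes, 34.1% of those tested. The EV and NT samples did not overlap in 11732 of the 17230 tested genes, so the lack of overlap given for genes below is common. With an offset for the GC content of each transcript the split of called genes was 738 higher and 626 lower over 14337 genes, and with one for transcript length it was 704 and 600. Leaving out 1 sample gave 554 called genes without NT replicate 1, 631 without NT replicate 2, 509 without EV replicate 1, 620 without EV replicate 2 and 2438 without KD replicate 2, so the number of calls rests on each control sample.

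NT was more often the outlying line than EV. Of the 905 genes called higher in EV, both NT samples lay below the other 8 samples of the series in 761, and both EV samples lay above the other 8 in 145. Of the 501 genes called lower in EV, NT lay above all others in 447 and EV below all others in 47. Over all tested genes NT lay lowest in 18.7% and highest in 18.7%, and EV in 3.74% and 4.96%. A call already requires EV and NT to stand apart, which raises these shares, so the counts are a description.

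**Figure D1:**
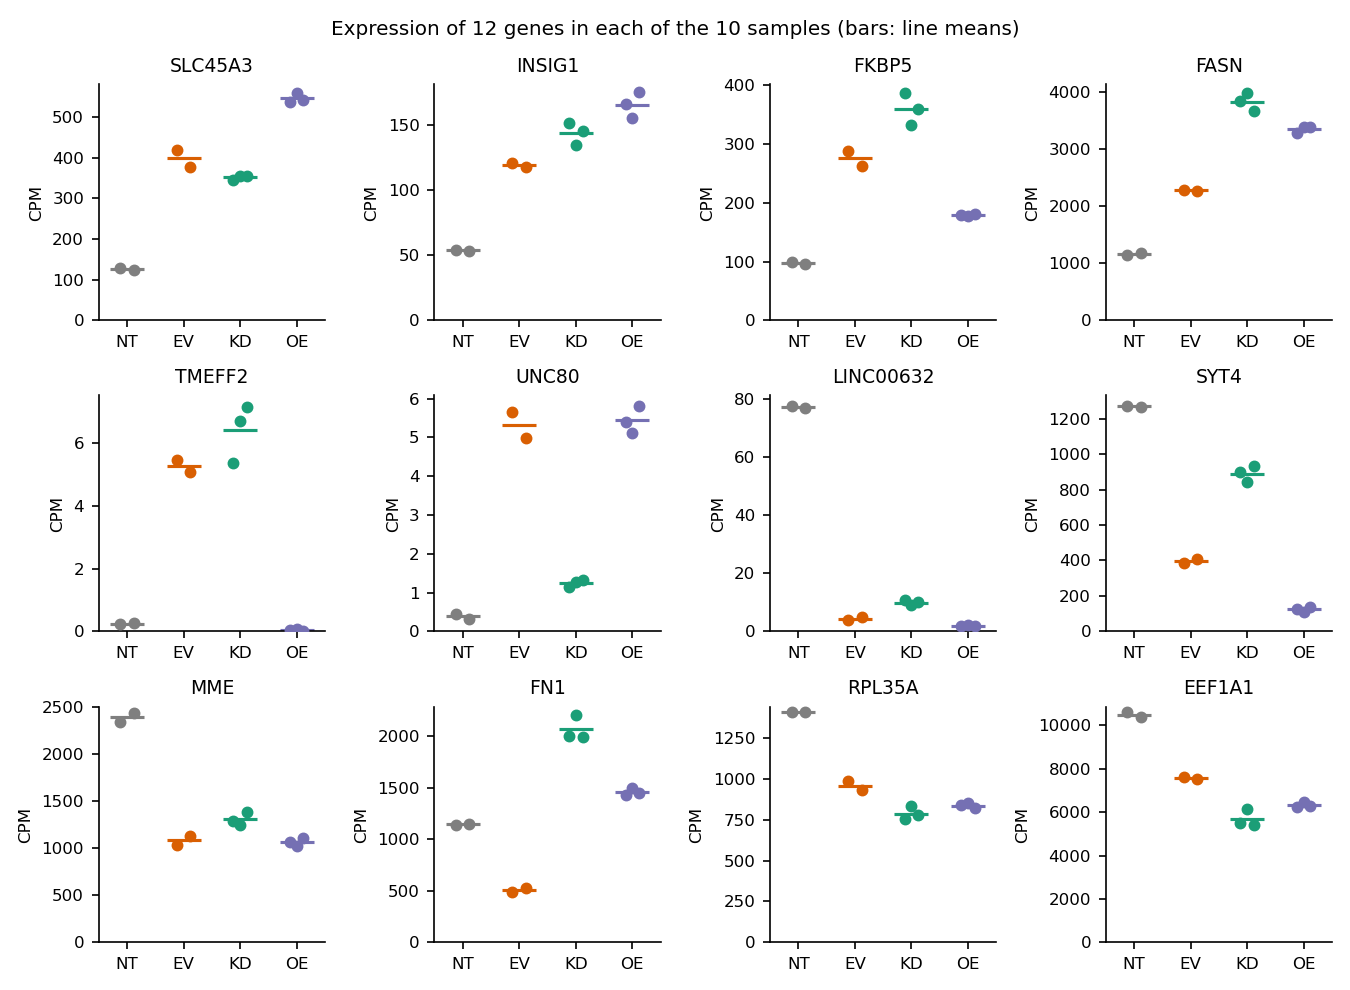
Expression of 12 genes in CPM (linear axis from 0) in each of the 10 samples, with a bar at the mean of each line. NT (2 samples) stands apart from the other 3 lines in SLC45A3, INSIG1, LINC00632, MME and EEF1A1, EV and KD are high together in TMEFF2, and EV and OE are high together in UNC80.

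Genes that androgen induces were higher in EV. Of 26 such genes, all tested, 21 were called higher and none lower, with a median log2 fold change of 0.82 against -0.004 over all tested genes. All 26 had both EV samples above both NT samples, which holds for 5883 of the 17230 tested genes. Earlier results of these data had shown this direction, so the list is no independent evidence of it. The count was 16 to 23 over the alternatives.

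KLK3, which encodes prostate-specific antigen, was the most abundant gene called higher in EV. Its 250 bases before the start site are shown because they hold an androgen response half-site, AGAACA, in capitals 170 bases before the start (RefSeq, GRCh38.p14).

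KLK3, chr19:50854665-50854914, plus strand: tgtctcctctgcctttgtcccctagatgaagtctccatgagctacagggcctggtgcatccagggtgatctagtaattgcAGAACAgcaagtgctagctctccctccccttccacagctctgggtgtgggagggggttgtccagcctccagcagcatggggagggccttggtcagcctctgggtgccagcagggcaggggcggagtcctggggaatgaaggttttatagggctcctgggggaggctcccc

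KLK3 was at 2355 and 2576 CPM in NT and at 3487 and 3336 in EV. The groups did not overlap, and EV was 1.38-fold higher (log2 fold change 0.47 ± 0.06, SE; adjusted p = 9.84e-07). It lost its call without NT replicate 1 or EV replicate 1, and KD and OE were higher still, at 4234 to 5946. The half-site, searched on both strands in 250 bases before to 50 after the start, was in 3 of the 19 androgen-induced genes with a promoter in the table (15.8%), in 8.86% of the 11130 tested genes with one and in 14.9% of all 27305 promoters, so these windows did not set the list apart. The palindromic androgen response element, with 2 half-sites, was searched only as a fixed pattern that allowed no mismatch. A match was in none of the 19, in 0.18% of tested genes and in 0.388% of all promoters. Among the 705 genes called higher in EV with a promoter it was in 5 (0.709%). Elements with a less exact second half-site were not searched for. The search therefore cannot tell whether the half-site of KLK3, or of another list member, is part of such an element.

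Larger differences lay in other members of the list. SLC45A3, a prostate-restricted transporter (chr1:205657851-205680509), was at 129.3 and 125 CPM in NT and at 420 and 377 in EV, 3.14-fold higher (log2 fold change 1.65 ± 0.06, adjusted p = 1.17e-16). FKBP5, a co-chaperone of steroid receptors (chr6:35573585-35728583), was at 99.4 and 96.1 in NT and at 288 and 262 in EV, 2.81-fold higher (adjusted p = 8.63e-15). PMEPA1, an inhibitor of TGF-beta signalling (chr20:57648392-57711536), was at 230 and 223 in NT and at 610 and 560 in EV, 2.58-fold higher (adjusted p = 9.65e-15). In all 3 genes the NT samples were the lowest of the series. The kinase SGK1 (4.17-fold), the metalloreductase STEAP4 (3.9-fold) and the acyl-CoA synthetase ACSL3 (2.55-fold) were called higher too. The 5 members not called were PLPP1, KLK4, ADAMTS1, NDRG1 and SLC26A2, at log2 fold changes of 0.11 to 0.26.

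Among 9 tested genes that androgen represses, OPRK1, IGFBP3 and DDC were called lower in EV and 1 gene was called higher. IGFBP3, a binding protein of insulin-like growth factors (chr7:45912245-45921874), was at 31.5 and 29.5 in NT and at 6.24 and 8.72 in EV, 4.09-fold lower (adjusted p = 5.82e-12). The median of the 9 was -0.66, OPRK1 lost its call without NT replicate 1 or EV replicate 1, and the count of 3 was 1 without NT replicate 1 and 5 without KD replicate 2 or in the 4 control samples alone.

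Prostate luminal markers overlap with the androgen-induced list, with 9 of 14 called higher, none lower and a median of 0.42. For all tested genes the shares were 5.25% called higher and 2.91% lower. TMPRSS2, a membrane serine protease (chr21:41464300-41531116), was at 581 and 598 CPM in NT and at 1188 and 1120 in EV, 1.96-fold higher (adjusted p = 5.42e-12). The kallikrein KLK2 was at 440 and 460 in NT and at 772 and 685 in EV, 1.62-fold higher (adjusted p = 3.41e-09). Neither overlapped between the lines. FOLH1, which encodes prostate-specific membrane antigen, had the 1 negative value, -0.29, with 992 and 1014 CPM in NT and 821 and 824 in EV (adjusted p = 0.000189). In bulk RNA a larger share of differentiated cells and more of these RNAs per cell cannot be told apart.

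**Figure D2:**
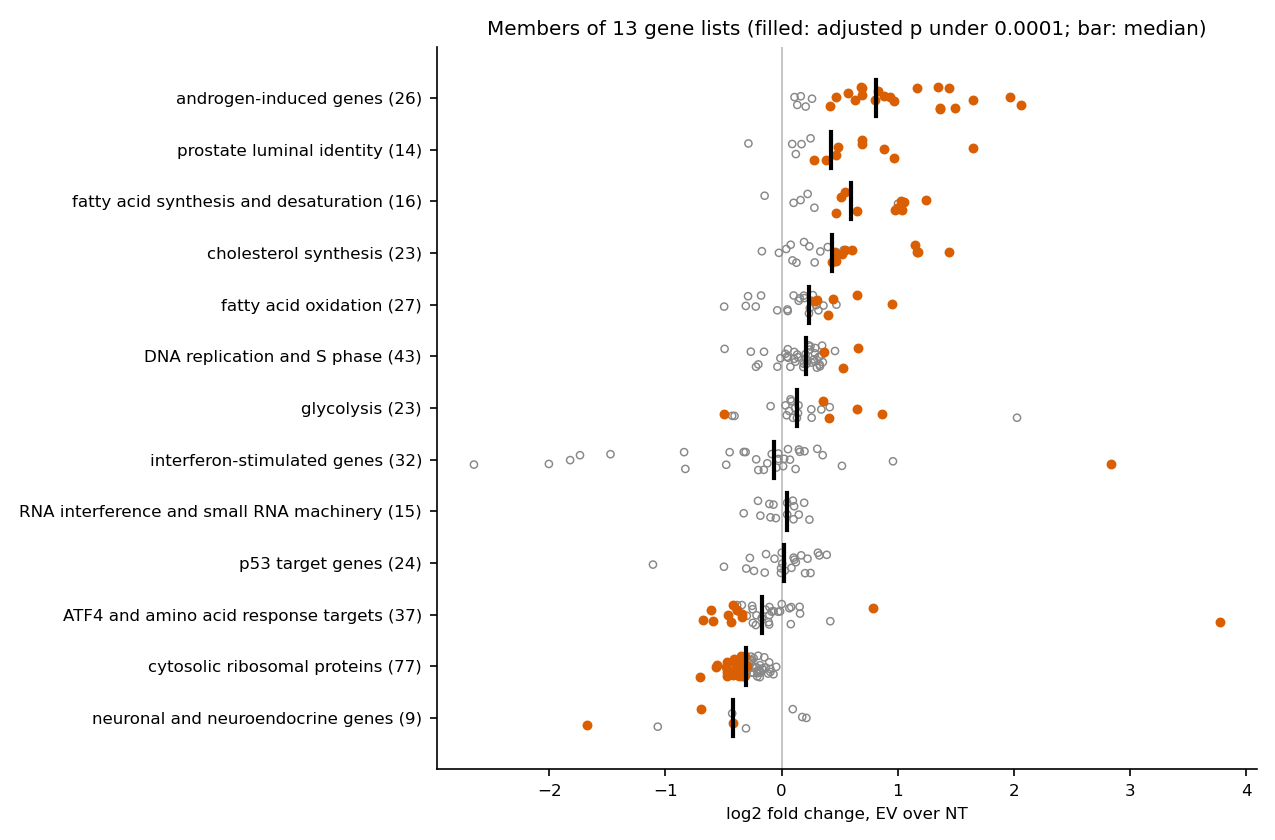
Log2 fold change of EV over NT for every tested member of 13 gene lists, with the number tested in brackets, filled points for genes called at an adjusted p under 0.0001 and a black bar at each median. Androgen-induced, fatty acid synthesis and cholesterol synthesis genes lie to the right (medians 0.82, 0.60 and 0.44) and cytosolic ribosomal protein genes to the left (median -0.31).

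Genes of lipid synthesis were also higher in EV. Of 16 genes of fatty acid synthesis and desaturation 10 were called higher and none lower (median log2 fold change 0.60), and of 23 tested genes of cholesterol synthesis and uptake 10 were called higher and none lower (median 0.44). With the GC offset the medians were 0.49 and 0.31.

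The cholesterol genes are regulated by SREBF2, and 250 bases before the start sites of SREBF2, INSIG1 and HMGCS1 are shown to place their CCAAT boxes (CCAAT, or ATTGG on the other strand) and, in SREBF2, a sterol regulatory element (TCACNCCAC), all in capitals. SREBF2 has its CCAAT box 106 bases before the start and its sterol element upstream of that, INSIG1 a CCAAT box 170 bases before it, and HMGCS1 CCAAT boxes 155 and 100 bases before it. No base belongs to both motifs.

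SREBF2, chr22:41832855-41833104, plus strand: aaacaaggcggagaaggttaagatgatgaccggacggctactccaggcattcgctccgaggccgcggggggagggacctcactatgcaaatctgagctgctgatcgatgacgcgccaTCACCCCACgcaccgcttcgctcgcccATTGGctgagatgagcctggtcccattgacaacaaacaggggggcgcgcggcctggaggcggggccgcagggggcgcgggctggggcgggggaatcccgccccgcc

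INSIG1, chr7:155297628-155297877, plus strand: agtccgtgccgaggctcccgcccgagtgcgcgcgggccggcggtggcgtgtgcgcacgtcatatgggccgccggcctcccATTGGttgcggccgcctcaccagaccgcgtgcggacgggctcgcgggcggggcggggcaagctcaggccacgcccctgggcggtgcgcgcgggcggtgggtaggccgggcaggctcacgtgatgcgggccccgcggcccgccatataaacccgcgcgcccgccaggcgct

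HMGCS1, chr5:43313413-43313662, minus strand: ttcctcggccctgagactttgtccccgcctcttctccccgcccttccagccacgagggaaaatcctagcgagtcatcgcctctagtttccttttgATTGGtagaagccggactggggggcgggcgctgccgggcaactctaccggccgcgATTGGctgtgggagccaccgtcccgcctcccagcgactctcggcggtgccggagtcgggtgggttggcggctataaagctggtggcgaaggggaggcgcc

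A CCAAT box was in 15 of the 18 cholesterol genes with a promoter in the table (83.3%), in 36.7% of tested genes and in 35.7% of all promoters. It was in 37.7% of the genes called higher in EV and in 35.9% of those called lower. The sterol element was in 1 of the 18 and in 1.15% of all promoters.

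SREBF2, the factor that drives the cholesterol genes, was at 343 and 344 CPM in NT and at 507 and 481 in EV, 1.44-fold higher (log2 fold change 0.52 ± 0.05, adjusted p = 3.05e-08). INSIG1, which holds SREBP in the endoplasmic reticulum, was at 54.2 and 53.7 in NT and at 121 and 118 in EV, 2.22-fold higher (adjusted p = 1.26e-12). Both were separate between the lines, with NT the lowest of the series. HMGCS1, an early enzyme of the pathway, was not called, at 55.7 and 54.0 in NT and at 57.0 and 58.8 in EV (log2 fold change 0.08, adjusted p = 0.428).

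In fatty acid synthesis, FASN, the fatty acid synthase (chr17:82078338-82098294), was at 1139 and 1186 CPM in NT and at 2287 and 2276 in EV, 1.96-fold higher (log2 fold change 0.97 ± 0.05, adjusted p = 7.55e-13). The elongase ELOVL5 (chr6:53267398-53349179) was at 455 and 479 in NT and at 1126 and 1092 in EV, 2.37-fold higher (adjusted p = 5.65e-15). The desaturases SCD and FADS2 were 2.05-fold and 1.99-fold higher (adjusted p = 1.71e-13 and 3.13e-13), from 440 and 415 and from 316 and 327 in NT. KD and OE were above EV in FASN and FADS2, at 3292 to 3992 and 1047 to 1323 CPM, so NT was the low line. The median of 27 genes of fatty acid oxidation was 0.24, and 0.10 with the GC offset. Of these genes 6 were called higher and none lower, against 5.25% and 2.91% of all tested genes. That count was 0 without NT replicate 1, 1 without NT replicate 2, EV replicate 1 or EV replicate 2, and 12 without KD replicate 2. CPT1A was among the 6, 1.22-fold higher in EV (adjusted p = 9.8e-05), and it lost its call with DESeq2 size factors, with at least 10 counts in every sample, with either offset, without KD replicate 1, KD replicate 3, OE replicate 1 or OE replicate 3 and without any 1 control sample, as ACADL and ECI1 also did in the last case.

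**Figure D3:**
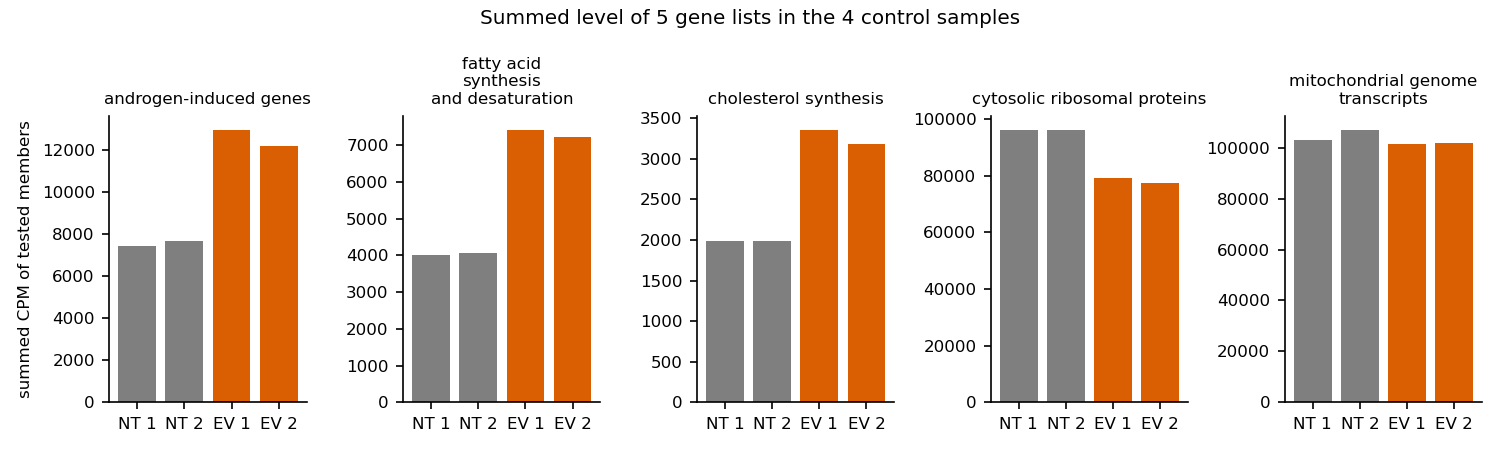
Summed CPM of the tested members of 5 gene lists in the 4 control samples (bars from 0, NT grey, EV orange). Ribosomal proteins sum to 95896 and 96096 in NT and to 79232 and 77265 in EV, and androgen-induced genes to 7440 and 7678 in NT and 12937 and 12166 in EV.

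Cytosolic ribosomal protein genes were lower in EV, with 36 of 77 called lower, none higher and a median log2 fold change of -0.31. All 77 had a negative value, from -0.70 in RPL7 to -0.05 in RPS2. In 76 both EV samples lay below both NT samples, which holds for 5849 of the 17230 tested genes. The summed level of the 77 was 95896 and 96096 CPM in NT and 79232 and 77265 in EV. The 13 transcripts of the mitochondrial genome summed to 103097 and 106926 in NT and 101279 and 101761 in EV, with none called. In 57 of the 77 genes NT was the highest line of the series, against 18.7% of all tested genes. The number of calls was 9 without NT replicate 1, 15 without NT replicate 2, 11 without EV replicate 1 and 6 without EV replicate 2, it was 66 in the 4 control samples alone and 59 with the GC offset, and the median stayed between -0.37 and -0.29 in every alternative run. For comparison, 1037 other genes no longer than 869 bases, the median length of the ribosomal protein transcripts, had a median of -0.07.

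Their start sites are shown, from 10 bases before to 20 bases from the start (RefSeq, GRCh38.p14), with the pyrimidine run that begins at the start in capitals, beside those of the elongation factor EEF1A1 and of the nucleolar chaperone NPM1, which were also lower in EV.

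RPL34, chr4:108620566-108620595, plus strand: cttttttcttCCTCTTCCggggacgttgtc

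RPL35A, chr3:197950180-197950209, plus strand: gggcctcgtcCTTCTCTTaccgccatcttg

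RPL13A, chr19:49487598-49487627, plus strand: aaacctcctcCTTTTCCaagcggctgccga

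RPS6, chr9:19380217-19380246, minus strand: gaagttggccCTCTTTTCCgtggcgcctcg

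RPS18, chr6:33272065-33272094, plus strand: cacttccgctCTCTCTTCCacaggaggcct

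EEF1A1, chr6:73521013-73521042, minus strand: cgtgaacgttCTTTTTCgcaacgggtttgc

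NPM1, chr5:171387839-171387868, plus strand: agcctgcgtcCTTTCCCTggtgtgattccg

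A start at C with at least 4 further pyrimidines was in 42 of the 61 ribosomal protein genes with a promoter in the table (68.9%), in 5.18% of tested genes and in 4.04% of all promoters. Among translation initiation and elongation genes it was in 6 of 23 (26.1%). It was in 44 of 390 genes called lower in EV (11.3%) and in 26 of 705 called higher (3.69%), and the ribosomal protein genes are among the former.

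EEF1A1, which brings aminoacyl-tRNA to the ribosome, was at 10608 and 10366 CPM in NT and at 7598 and 7523 in EV, 1.39-fold lower (log2 fold change -0.47 ± 0.06, adjusted p = 1.16e-06). RPL35A (chr3:197950190-197956610) was at 1408 and 1407 in NT and at 983 and 931 in EV, 1.47-fold lower (adjusted p = 1.57e-08), and RPL34 at 346 and 320 and at 231 and 219, 1.48-fold lower (adjusted p = 9.6e-09). NPM1 was at 1790 and 1755 in NT and at 1251 in both EV samples, 1.42-fold lower (adjusted p = 3.05e-08). None of these 4 genes overlapped between the lines. RPL13A, RPS6 and RPS18 were 1.3-fold, 1.26-fold and 1.29-fold lower and each lost its call when any 1 of the 4 control samples was left out, RPS6 also with the GC offset and without OE replicate 1 or OE replicate 3, while EEF1A1 lost it without NT replicate 1 or EV replicate 2. Many of these genes have processed pseudogenes, and how reads with several matches were counted is not given in the sources used here, so single values are uncertain to that extent.

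Other genes of translation split, to be read against 2.91% of all tested genes called lower and 5.25% called higher. Of 29 initiation and elongation genes 5 were called lower, among them the helicase EIF4A2 (690 and 688 CPM in NT, 448 and 464 in EV, 1.51-fold lower, adjusted p = 3.92e-09), and the release factor GSPT1 was called higher (1.31-fold, adjusted p = 8.05e-07). The 5 were 2 without NT replicate 1 or EV replicate 1, 3 without NT replicate 2, 1 without EV replicate 2 and 9 without KD replicate 2. Of 33 genes of ribosome biogenesis 4 were called lower, NPM1, GNL3, NOP58 and UTP4, none higher, and the median was 0.03, with NOP58 and UTP4 losing their calls without any 1 control sample and with library size alone, UTP4 also with limma-voom and without OE replicate 1 or OE replicate 3, and GSPT1 without NT replicate 1 or EV replicate 1.

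Targets of ATF4, the transcription factor of the amino acid response, had 10 of 37 called lower in EV, 2 higher and a median of -0.17. For all tested genes the shares were 2.91% called lower and 5.25% higher. ATF4 was at 1174 and 1160 CPM in NT and at 904 and 891 in EV, 1.3-fold lower (log2 fold change -0.38 ± 0.06, adjusted p = 1.05e-05). The cystine transporter SLC7A11 was at 346 and 332 in NT and at 215 and 231 in EV, 1.52-fold lower (adjusted p = 4.75e-07), and the aminoacyl-tRNA synthetase gene NARS at 432 and 409 and at 273 and 286, 1.5-fold lower (adjusted p = 1.87e-08). Both were separate between the lines, ATF4 lost its call without any 1 control sample and SLC7A11 without EV replicate 1. In the opposite direction, the amino acid transporter SLC7A5 was at 274 and 264 in NT and at 460 and 471 in EV, 1.73-fold higher (adjusted p = 5.99e-10), and ALDH1L2, a mitochondrial enzyme of folate metabolism, was at 1.09 and 1.15 in NT and at 14.8 and 16.0 in EV, 13.7-fold higher (adjusted p = 2.8e-14). ALDH1L2 was low in KD and OE too, at 0.543 to 1.74, so EV was the high line. The count of 10 was 5 without NT replicate 1, 6 without NT replicate 2, 4 without EV replicate 1 and 5 without EV replicate 2, and 16 in the 4 control samples alone. OE and KD share no sample with the controls and differ in CPT1A itself. Between them 35 of the 37 were called higher in OE and 1 lower, against 15.5% and 16.4% of all tested genes.

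The largest differences were in genes that are nearly silent in 1 of the lines. MMP16, a membrane-type metalloproteinase, was at 1.43 and 0.913 CPM in NT and at 27.3 and 28.5 in EV, 23.6-fold higher (log2 fold change 4.56 ± 0.17, adjusted p = 6.68e-16). TMEFF2, a transmembrane protein of prostate and brain (chr2:191949043-192194933), was at 0.226 and 0.278 in NT and at 5.46 and 5.07 in EV, 20.6-fold higher (adjusted p = 5.8e-11). Both genes shared an order across lines: EV and KD were high and NT and OE low, with TMEFF2 at 5.36 to 7.16 in KD and at 0 to 0.0905 in OE.

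UNC80, a subunit of the sodium leak channel complex, was at 0.453 and 0.318 CPM in NT and at 5.65 and 4.99 in EV, 13.6-fold higher (adjusted p = 1.88e-11). Its KD samples were at 1.15 to 1.33 and its OE samples at 5.11 to 5.8, so it was high in the EV and OE lines. The scaffold AKAP12 had the same order, with 2.83 and 2.86 in NT, 21 and 17 in EV, 4.18 to 4.94 in KD and 10.2 to 12 in OE.

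CDH26, NECTIN3 and BST2 were high in EV alone. The cadherin CDH26 was at 0.868 and 0.556 CPM in NT and at 11.2 and 10.2 in EV, 14.9-fold higher, with 2.4 to 4.25 in KD and OE. The adhesion receptor NECTIN3 (chr3:111070071-111275563) was at 2.23 and 2.9 in NT and at 22 and 24.8 in EV, 9.13-fold higher, with 6.43 to 7.81 in KD and OE. SLC22A3, an organic cation transporter, and DOCK8, an activator of small GTPases, were low in NT alone: SLC22A3 was at 0.49 and 0.675 in NT and at 3.74 to 6.32 elsewhere, and DOCK8 at 0.679 and 0.437 and at 1.96 to 3.94.

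In the other direction, LINC00632, a long non-coding RNA (chrX:140709562-140793215), was at 77.3 and 76.7 CPM in NT and at 3.78 and 4.95 in EV, 17.7-fold lower in EV (log2 fold change -4.14 ± 0.11, adjusted p = 7.63e-19). EPHA3, an ephrin receptor (chr3:89107621-89482134), was at 19.4 and 18.1 in NT and at 1.79 and 1.7 in EV, 10.7-fold lower (adjusted p = 2.8e-14). STXBP5L, a syntaxin-binding protein (chr3:120908072-121424761), was at 236 and 232 in NT and at 61.2 and 66.2 in EV, 3.68-fold lower (adjusted p = 7.94e-15). The 3 genes were separate between EV and NT, and each was also lower in OE than in KD. The chemokine-binding receptor ACKR3 (147 and 140 in NT, 35.6 and 33.3 in EV, 4.15-fold lower) and the transcription factor PAX1 (44.9 and 46.8, 11.2 and 12.3, 3.9-fold lower) were high in NT alone, with KD and OE at 35.0 to 49.7 and 13.6 to 16.6. The lipocalin LCN2 was at 9.51 and 8.14 in NT, 2.18 and 1.91 in EV and 0.0383 to 2.47 in KD and OE. The remaining large negative differences were in GASK1B (4.47-fold), SLITRK6 (4.9-fold), HOXD13 (3.64-fold) and DUX4L26, a pseudogene of a repeated family whose reads may come from several copies (4.9-fold).

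Among abundant genes, MME, the cell-surface peptidase neprilysin (chr3:155024124-155183704), was at 2343 and 2434 CPM in NT and at 1040 and 1133 in EV, 2.2-fold lower (log2 fold change -1.14 ± 0.06, adjusted p = 2.45e-13). FTH1, the heavy chain of ferritin, was at 3517 and 3219 in NT and at 2532 and 2571 in EV, 1.32-fold lower (adjusted p = 3.25e-06). ABHD2, a lipid hydrolase, was at 2031 and 2053 in NT and at 3211 and 3151 in EV, 1.56-fold higher (adjusted p = 1.67e-09), and the secreted matrix protein SPON2 was 1.58-fold higher, from 845 and 825 to 1373 and 1271 (adjusted p = 3.92e-09). No EV sample overlapped an NT sample in these 4 genes, which holds for 11732 of the 17230 tested genes. ERGIC1 (1.48-fold higher) and SRRM2 (1.21-fold higher) were called too, SRRM2 lost its call without any 1 control sample, without KD replicate 1, KD replicate 3, OE replicate 1 or OE replicate 3, with either offset and with the stricter filter of 10 counts, and FTH1 lost it without NT replicate 1, EV replicate 1 or EV replicate 2.

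Adhesion and matrix genes held some large single differences, with 5 of 28 called lower, 2 higher and a median of -0.09. For all tested genes the shares were 2.91% called lower and 5.25% higher. FN1, fibronectin (chr2:215360440-215436073), was at 1135 and 1150 CPM in NT and at 493 and 524 in EV, 2.25-fold lower (adjusted p = 6.97e-14), while KD and OE were higher than both, at 1425 to 2199. CDH3, P-cadherin (chr16:68636189-68727468), was at 10.8 and 11.6 in NT and at 2.77 and 3.04 in EV, 3.85-fold lower (adjusted p = 1.03e-08). The tight junction genes CLDN3 and CLDN4 were 1.56-fold and 1.45-fold higher in EV, from 68.9 and 74.0 and from 132.3 and 132.6 in NT, and CLDN4 lost its call without EV replicate 1. The intermediate filament gene VIM, in the list of other cell types because it marks mesenchymal cells, was at 80.3 and 81.7 in NT and at 33.3 and 35.4 in EV, 2.36-fold lower (adjusted p = 4.3e-12), and the tested markers of that list had a median of -0.10. The 5 lower calls were 3 without NT replicate 1, 2 without NT replicate 2, EV replicate 1 or EV replicate 2, and 8 in the 4 control samples alone.

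Of 25 neuronal and neuroendocrine genes only 9 were expressed enough to test, with a median of -0.42. Of the 9, 3 were called lower in EV and none higher, against 2.91% and 5.25% of all tested genes. SYT4, a synaptotagmin of vesicle release, was at 1273 and 1265 CPM in NT and at 388 and 408 in EV, 3.19-fold lower (log2 fold change -1.67 ± 0.07, adjusted p = 8.63e-15). The decarboxylase DDC was at 23 and 22.6 in NT and at 14.4 and 13.8 in EV (1.62-fold lower, adjusted p = 1.97e-06), and the adhesion molecule NCAM2 at 405 and 428 and at 306 and 316 (1.34-fold lower, adjusted p = 4.42e-06). NXPH4 and ENO2, of the same list, had log2 fold changes of 0.21 and -0.43 (adjusted p = 0.00574 and 0.00247). CHGA, CHGB, INSM1 and STMN2 had at most 1 count in any sample, DDC lost its call without NT replicate 1 or EV replicate 2 and NCAM2 without NT replicate 2, EV replicate 1 or EV replicate 2, and the 3 calls were 1 without EV replicate 2 and 5 in the 4 control samples alone.

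Lists that bear on the vectors and drugs were read next, against 5.25% of all tested genes called higher and 2.91% called lower. Of 32 tested interferon-stimulated genes 1 was called, BST2, a membrane tether of budding viruses, at 1.28 and 1.11 CPM in NT and at 8.54 and 8.64 in EV (7.14-fold higher, adjusted p = 2.17e-11). The rest of the list did not follow it: the median was -0.06, ISG15 was at 17.7 and 17.3 in NT and at 20.8 and 19.3 in EV (adjusted p = 0.0817), and MX1 overlapped between the lines. IFIT3, IFIT2, IFIT1 and OASL, chosen after their values were seen, had log2 fold changes of -2.65, -1.82, -1.74 and -2.0 at levels under 1.4 CPM, with adjusted p of 0.00036, 0.00231, 0.0221 and 0.00604. At an adjusted p under 0.05 the list had 3 higher and 8 lower, against 18.5% and 15.5% of all tested genes.

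Sensors of double-stranded RNA had 1 of 12 called, the mitochondrial adaptor MAVS (171 and 175 CPM in NT, 221 and 222 in EV, 1.28-fold higher, adjusted p = 5.37e-06), with a median of 0.01. No gene of antigen presentation (16 tested, median -0.08) and none of the RNA interference machinery (15 tested, median 0.05) was called at an adjusted p under 0.0001, with 6 and 6 of them under 0.05. Nearest to a call in the latter were DICER1, which cuts hairpin precursors (86.2 and 92.7 in NT, 68.8 and 73.9 in EV, adjusted p = 0.00285), and XPO5, which exports them from the nucleus (113 and 110, 131 and 132.8, adjusted p = 0.00397). MAVS lost its call without any 1 control sample.

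Of 9 drug efflux transporters 6 were tested, 2 were called higher and 1 lower, and ABCB1, the main multidrug pump, had 0 to 4 counts in every sample. ABCC4 (chr13:95019835-95301475) was at 204 and 212 CPM in NT and at 478 and 457 in EV, 2.25-fold higher (adjusted p = 2.32e-14), and stands in the androgen-induced list too. ABCC1 (chr16:15949138-16143257) was at 127 and 128 in NT and at 294 and 270 in EV, 2.21-fold higher (adjusted p = 3.46e-14). ABCC5 was at 90.4 and 94.7 in NT and at 65.7 and 61.1 in EV, 1.46-fold lower (adjusted p = 5.4e-06). All 3 were separate between the lines, and ABCC5 lost its call without NT replicate 1, NT replicate 2 or EV replicate 2.

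Of 24 p53 target genes none was called (edgeR; 5 higher and 3 lower at an adjusted p under 0.05), with a median of 0.02, and the DNA repair gene XPC had the smallest adjusted p, 0.00014. Of 43 S-phase genes 3 were called higher (MCM3, E2F1 and MCM7) and none lower. That share, 6.98%, was near the 5.25% of all tested genes called higher. The median of the 43 was 0.21 with 36 positive values, and NT was the lowest line in 19 of them, against 18.7% of all tested genes. The 3 were 6 without KD replicate 2 and 11 in the 4 control samples alone. The transcription factor E2F1 was at 19.1 and 20.3 CPM in NT and at 30.5 and 31.7 in EV, 1.58-fold higher (adjusted p = 4.57e-07). G2 and mitosis genes had 1 of 44 called, the kinetochore motor CENPE (24.8 and 28.2 in NT, 11.2 and 9.29 in EV, 2.57-fold lower, adjusted p = 2.34e-05), with a median of -0.07, and MCM7 and CENPE lost their calls without any 1 control sample. CENPE was also not called by DESeq2, by limma-voom or with library size alone, nor MCM7 with library size alone, with either offset or without OE replicate 1.

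Lists of metabolism and stress are given by their calls, to be read against the 5.25% of all tested genes called higher and the 2.91% called lower. Glycolysis had 4 of 23 called higher and 1 lower (median 0.13): the lactate exporter SLC16A3 was 1.82-fold higher, from 29.7 and 31.5 CPM in NT to 57.3 and 53.9 in EV (adjusted p = 2.63e-10), and its relative SLC16A1 was 1.41-fold lower, from 322 and 310 to 211 and 237 (adjusted p = 1.36e-07). The 4 were 2 without NT replicate 1, NT replicate 2 or EV replicate 1, and 8 without KD replicate 2. NRF2 targets and glutathione genes had 2 of 29 called each way, with the glutathione reductase GSR 1.42-fold and the glutamate-cysteine ligase GCLC 1.58-fold higher and SLC7A11 and FTH1 lower, and none was called lower without EV replicate 1. Hypoxia genes had 1 of 18 called higher, BHLHE40 (1.85-fold), and 2 lower, STC2 and BNIP3L, of which BNIP3L lost its call without any 1 control sample. Nuclear genes of the respiratory chain had 3 of 39 higher, with no such call left when any 1 control sample was removed, and 1 lower, NDUFB5 (1.4-fold), which was not called without EV replicate 1. Heat shock chaperones had 2 of 16 higher, HSPA1B and HSPB1, and 1 lower, HSPD1, and all 3 lost their calls with the GC offset and without NT replicate 1, EV replicate 1 or EV replicate 2, HSPA1B and HSPD1 also without NT replicate 2, and HSPD1 with DESeq2 size factors and without KD replicate 1, OE replicate 1 or OE replicate 3. Chaperones of the endoplasmic reticulum had 1 of 22 called each way, PDIA4 1.3-fold higher and not called without NT replicate 2 or EV replicate 1, and DNAJB11 1.36-fold lower and not called without any 1 control sample. Of 20 replication-dependent histone genes HIST1H1C was called higher, and none was without NT replicate 2 or EV replicate 1 or with the GC offset. Of 21 immediate early genes 2 were called higher, PHLDA1 (1.4 and 1.23 in NT, 4.13 and 5.44 in EV, 3.62-fold) and JUND, which lost its call without any 1 control sample, without OE replicate 1 and with either offset. The serine synthesis enzyme PHGDH, one of 27 genes the study names, was at 759 and 746 in NT and at 741 and 734 in EV (log2 fold change -0.03, adjusted p = 0.762), and of the 27 there were 2 called higher, CPT1A among them, and 4 lower, DDIT3, PSAT1, ATF4 and NCAM2. PSAT1 lost its call without any 1 control sample, NCAM2 also with the GC offset, and the other 21 had log2 fold changes from -0.43 in ENO2 to 0.61 in SOD3.

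The called genes were read in OE against KD, which uses none of the 4 control samples. OE and KD differ in the same vectors and drugs as EV and NT and, beyond them, in CPT1A, and 5490 genes were called between them (31.9% of those tested). Of the 905 genes higher in EV, 322 (35.6%) were called higher in OE, 144 (15.9%) lower and 439 neither. Of the 501 lower in EV, 183 (36.5%) were called lower in OE, 93 (18.6%) higher and 225 neither. Over all tested genes 20.2% were called with the sign they had in EV versus NT and 11.7% with the opposite one. The 505 shared calls were 35.9% of the genes called between the controls and 9.2% of those called between OE and KD. Genes called between the controls were thus called more often in OE against KD in either direction. By sign alone, called or not, 63.3% of the 1406 went the same way, against 57.1% of all tested genes. Among the 1406, 505 were called the same way and 237 the opposite way. Of all 5490 genes called between OE and KD, 63.3% had the same sign. UNC80, SLC45A3, PMEPA1 and SREBF2 went the same way in both, at OE-KD log2 fold changes of 2.12, 0.63, 0.76 and 0.68. MMP16, TMEFF2 and FKBP5 went the opposite way, at -3.24, -7.13 and -1.01. The ribosomal protein list was lower in EV but had 43 of 77 called higher in OE and 4 lower, against 15.5% and 16.4% of all tested genes.

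Differences followed the GC content of transcripts. Over 14337 genes with a GENCODE transcript, split into 5 equal groups by GC content, the lowest group had a median log2 fold change of -0.20, with 49 called higher and 224 lower, and the median was -0.08, 0.04, 0.13 and 0.16 in the next groups, with 310 called higher and 18 lower in the last. Groups by transcript length had medians of -0.03 to 0.04. The part of GC content in the gene lists was measured with the offset: androgen-induced genes had a median of 0.84 with it, fatty acid synthesis 0.49, cholesterol synthesis 0.31 and ribosomal proteins -0.37. The 4 lists kept their direction. Prostate luminal markers kept a median of 0.32, while fatty acid oxidation fell to 0.10 and glycolysis to 0.04. Some medians near 0 changed sign. With the offset they were -0.07 in ribosome biogenesis, -0.04 in immediate early genes and -0.004 in NRF2 targets. They were -0.06 in RNA interference genes, -0.12 in sensors of double-stranded RNA, -0.03 in p53 targets and -0.15 in replication-dependent histones.

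**Figure D4:**
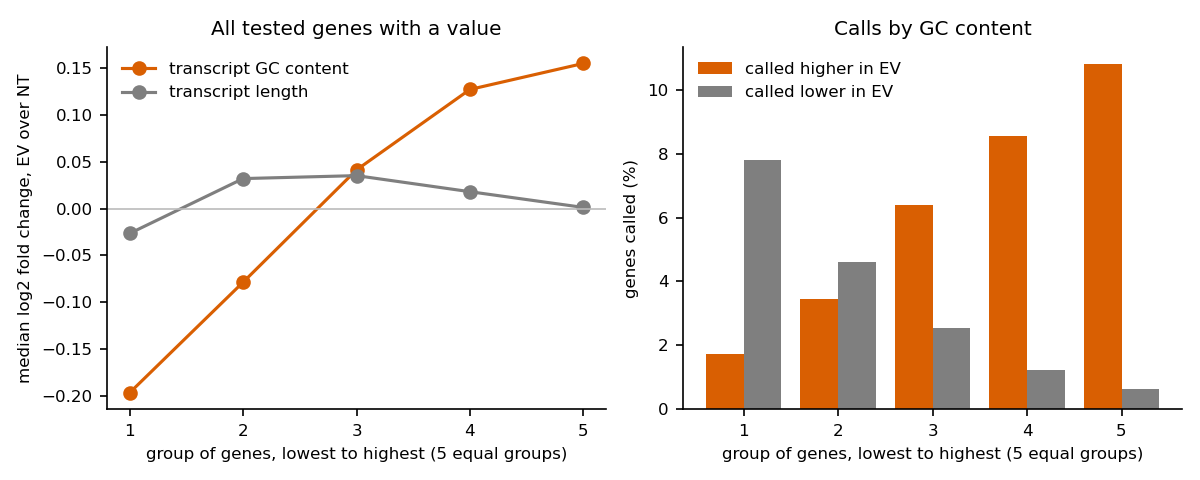
Left, median log2 fold change of EV over NT in 5 equal groups of genes by transcript GC content (orange) and by transcript length (grey). Right, the share of genes called higher (orange) or lower (grey) in EV by GC group in percent: higher calls go from 1.71% to 10.8% and lower calls from 7.81% to 0.628%.

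Differences also ran along chromosomes. In 273 windows of 50 adjacent tested genes the median log2 fold change was beyond 0.2 either way in 36 (11 higher and 25 lower in EV), and with the GC offset in 10 (3 and 7). The longest run was on chr3:128489212-198190365, where 297 tested genes had a median of -0.22 with 2 called higher and 58 lower, and the EV samples had median log2 ratios of -0.22 and -0.20 to the NT mean. MME, RPL35A, EIF4A2, ABCC5, NDUFB5 and DNAJB11, all described above as lower in EV, lie in it. With the GC offset its median was -0.22, and OE against KD had -0.30 over the same genes. This stretch and those below were chosen by their medians with the GC offset. Runs of at least 2 adjacent windows beyond 0.15 the same way were taken on any chromosome. Single windows were taken only on chr6 and chr7, and only above 0.15. Other single windows beyond 0.15 were left out, such as chr6:26224199-29949572 at -0.24 and chr7:23680130-32894131 at -0.19 with the offset. That the chosen stretches kept their direction with the offset was set by this choice and is no check on GC content.

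A stretch of chr16:31074422-75116780 had a median of -0.18 over 200 genes (4 called higher, 20 lower), which was -0.25 with the offset, and holds CDH3 and UTP4. On chr4:99948086-141234697 the median of 100 genes was -0.24 (2 higher, 16 lower), -0.15 with the offset, and CENPE, RPL34 and SLC7A11 lie there. On chr6:43182184-53665756 it was 0.33 over 50 genes (14 higher, 1 lower), 0.23 with the offset, and ELOVL5, MCM3, XPO5 and GCLC lie there. The differences of these named genes, 1.25 for ELOVL5 and -1.14 for MME on the log2 scale, were larger than the medians of their stretches, and the part of the stretch in either was not tested. OE against KD had medians of -0.31, -0.13 and 0.01 over the chr16, chr4 and chr6 genes. Also chosen in this way were chr19:52012765-58605223 (median -0.11, -0.16 with the offset, 0.15 in OE against KD) and windows of chr7. Those of chr7 had medians of 0.08 to 0.23, and of -0.20 to -0.13 in OE against KD.

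**Figure D5:**
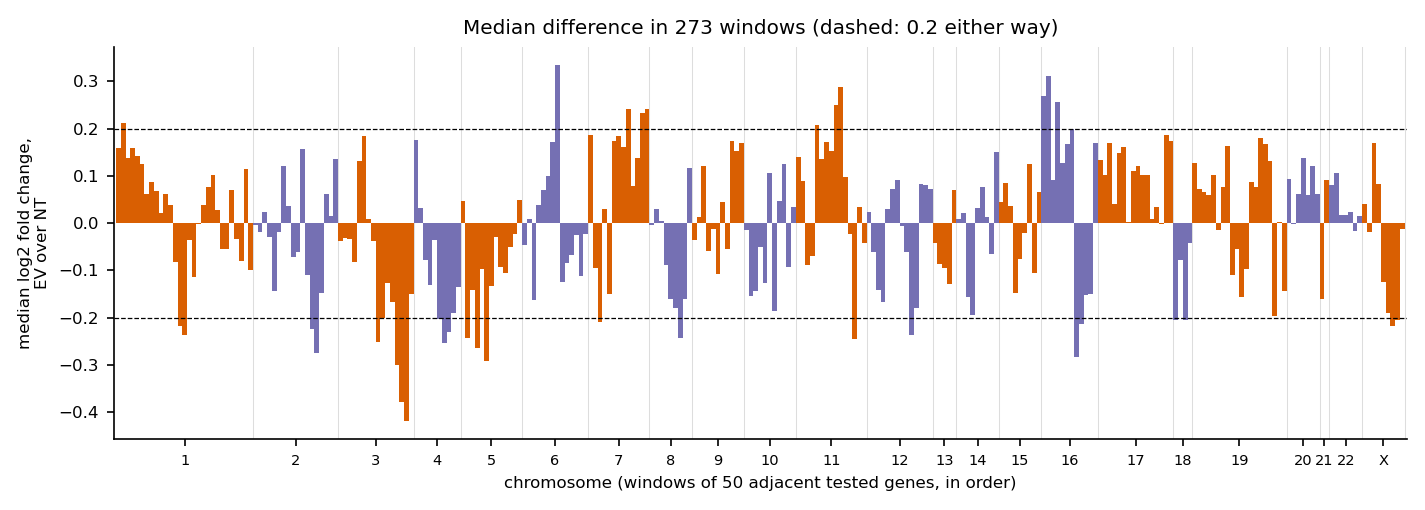
Median log2 fold change of EV over NT in 273 windows of 50 adjacent tested genes, in order along chromosomes 1 to 22 and X, in alternating colours, with dashed lines at 0.2 either way. The long arm of chromosome 3 holds the lowest run, down to -0.42, and 1 window of chromosome 6 is the highest at 0.33.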

How the data were processed

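RNA of 10 LNCaP-C4-2 samples was sequenced from poly(A) libraries. The authors trimmed reads with BBDuk, dropped those under 50 bp and aligned them with STAR 2.6.0a to the human transcriptome of hg38, and deposited counts per gene symbol; how reads with several matches or on either strand were counted is not given in the sources used here, and the authors used limma for their own comparisons. The deposited counts (57353 symbols, 23555205 to 28615770 per sample) were read here with edgeR 4.0.16 in R 4.3.3: filterByExpr left 17230 genes, libraries were scaled with TMM (factors 0.939 to 1.05), and a quasi-likelihood model with 1 mean per line over all 10 samples gave EV minus NT. A gene was called at a Benjamini-Hochberg adjusted p under 0.0001. SE is the log2 fold change over the square root of F. CPM are TMM-scaled. The members and lists were chosen with earlier results of these data known. Genes named were the 12 with the largest difference in each direction among called genes with an average log2 CPM of at least 1, the 6 called with the highest mean CPM over the 4 controls in each direction, up to 4 called members of each list (2 nearest where none was called) and the genes the study names; further list members were chosen after their values were seen. Some genes that this rule takes are counted but not reported here. DESeq2 1.42.0, limma 3.58.1 and the alternatives below were run. Transcript GC content and length, and positions, came from GENCODE v44 on GRCh38 (83.2% of tested genes matched), and promoters from RefSeq GRCh38.p14. The edgeR script was tested on simulated counts. At the call limit it recovered 28.1% of genes given an absolute log2 change of 0.5, 65.7% at 1 and 80% at 2. It called 0 of 16791 unchanged genes. A gene or list without calls may therefore still differ by such amounts.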

Additional observations from a re-analysis of the deposited data

How the results depend on the processing

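Of the 109 genes taken by the naming rule that were called, 69 kept their call in every one of 20 alternatives, and none of the genes it takes reversed its direction in any. The 1406 calls (905 higher, 501 lower) were 2306 (1401 and 905) with no filter on low counts, 3122 (1808 and 1314) in the 4 control samples alone, 5867 (3194 and 2673) at an adjusted p under 0.05 and 256 (143 and 113) with an absolute log2 fold change of at least 1. Leaving out 1 sample at a time gave 509 to 2438 calls, 339 to 1459 higher and 170 to 979 lower, and with 1 control sample left out the lone sample was assumed to vary like the other lines. The 4 lowest totals were those without a control sample (554 and 631 without NT replicate 1 and 2, 509 and 620 without EV replicate 1 and 2), and the highest was without KD replicate 2. DESeq2 gave 1777, limma-voom 1320, library size alone 1201 (857 and 344), DESeq2 size factors 1447 and the stricter filter 1265.

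The 505 called genes called the same way in OE versus KD were 943 with no filter and 200 to 1046 with 1 sample left out; the fit of the 4 controls alone gives no such value. The 36 windows beyond 0.2 were 104 of 558 with 25 genes a window and 10 of 273 with the GC offset. The offsets for GC content and transcript length were added after seeing the data; with them 1364 (738 and 626) and 1304 (704 and 600) genes were called. The cause of these changes was not tested. With the replicate block 1780 genes were called (1111 and 669); the numbers did not pair the samples, since the deviations of EV 1 and NT 1 correlated at -0.0411, and the block ended no call among the named genes while adding XPC and SOD3. With 2 samples a line, precision rests on a spread shared with KD and OE.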
